A study of Mus musculus with 12 samples.

Results

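Cells that received mifepristone and 100 mM NaCl together were compared with cells that received neither, in 6 of the 12 libraries of a mouse RNA sequencing series. The cells were IMCD3, a line made from the inner medullary collecting duct of the mouse kidney, in the subclone 53a. From knowledge of the study, these cells hold a gene switch that mifepristone turns on to make a dominant-negative form of a tubule transcription factor, and the deposited column names carry that mutant. The 2 groups compared were 3 untreated libraries, given vehicle in place of both agents, and 3 libraries given mifepristone with 100 mM added NaCl, each named A, B and C. The other 6 libraries, 3 with NaCl alone and 3 with mifepristone alone, entered the same fit and are given where they place the combined change. All 4 groups come from the same subclone and grew in low-glucose medium with serum, and every library holds the gene switch, so the mutant and mifepristone itself cannot be told apart. The sources used here give no treatment times. Nothing in the labels says that the 3 libraries of a group were separate cultures, so the p-values measure the spread between libraries, which may be technical.

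Cells of the inner medulla live in a salt concentration far above that of blood. When salt outside the cell rises, the transcription factor NFAT5 switches on genes that bring in or make small organic osmolytes (sorbitol, betaine, myo-inositol and taurine) and chaperones that protect proteins. The factor whose mutant is expressed here is a homeodomain protein of tubule epithelium that drives genes of the primary cilium, of polycystic kidney disease and of tubular transport. A dominant-negative mutant occupies the same sites or pairs with the normal protein and blocks its action. The comparison asks which genes stand higher or lower when both conditions apply at once.

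The untreated cells carried epithelial genes, with keratin Krt18 at 282.7, 267.7 and 269.8 FPKM, E-cadherin Cdh1 at 66.9, 68.9 and 66.3 FPKM and Epcam at 145.9, 129.6 and 128.9 FPKM. FPKM counts fragments per unit of transcript length and of sequencing depth, so it is a level per length. The vasopressin-regulated water channel gene Aqp2 and the vasopressin receptor gene Avpr2, which define principal cells of the collecting duct in the animal, were below 1 FPKM in all 6 libraries. Of 21 principal cell markers 10 stayed below 1 FPKM in all 6. Markers of other cells were mostly below that level too, in 8 of 8 cases for endothelium, 8 of 9 for fibroblasts, 7 of 9 for leukocytes and 9 of 12 for proximal tubule, where Slc22a6 and Slc22a8 were at 0 in all 6. The summed fibroblast list read 0.417 to 0.492 FPKM in vehicle and 3.1 to 3.51 FPKM with both treatments, nearly all of the latter from the proteoglycan gene Dcn, while the collagen genes Col1a2 and Col3a1 stayed near 0.

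Recovered reads assigned to genes ran from 41940955 to 49270776 over the 6 libraries. The libraries are bulk RNA, in which the share of cells that express a gene and the RNA per cell cannot be told apart. Log2 levels correlated at 0.9944 to 0.9969 between libraries of one group and at 0.9207 to 0.9241 between the groups, across genes, which are not independent replicates. Libraries deviated from their group along transcript length, vehicle A with a Spearman rho of -0.44 across genes between deviation and exon length. Vehicle B and C had 0.27 and 0.36, and libraries A, B and C with both treatments -0.24, -0.24 and 0.36. Mifepristone C, outside this comparison, had the strongest deviation of the 12 libraries, -0.51. The combined change had a rho of 0.03 with exon length.

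Of 14044 genes with at least 1 FPKM in at least 3 of the 12 libraries, limma called 9936 (70.7%) at an adjusted p under 0.05. Higher genes numbered 4389 (31.3%) and lower genes 5547 (39.5%). More genes fell than rose as deposited, but median-ratio scaling gave 4960 higher and 4922 lower, and a fit without the filter 7913 higher and 6016 lower. Most called genes moved little, and 5988 of them (60.3%) changed by under 1.5-fold. At least 2-fold changes were fewer, with 939 genes higher (6.69%) and 705 lower (5.02%), and at least 4-fold changes numbered 236 higher and 82 lower. The median over all tested genes was -0.05 on the log2 scale, and lists of genes are read against that median and against 31.3% and 39.5%. Genes under 1 FPKM in vehicle passed the filter only through treated libraries. Such members of a list lean toward higher by selection. Changes are differences of log2(FPKM + 0.5) with their standard error, 3 libraries per group, so they understate the change of genes that start near 0. For these, the ratio of reads after scaling to library depth is given with its 95% exact interval, which covers counting error only.

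**Figure D1:**
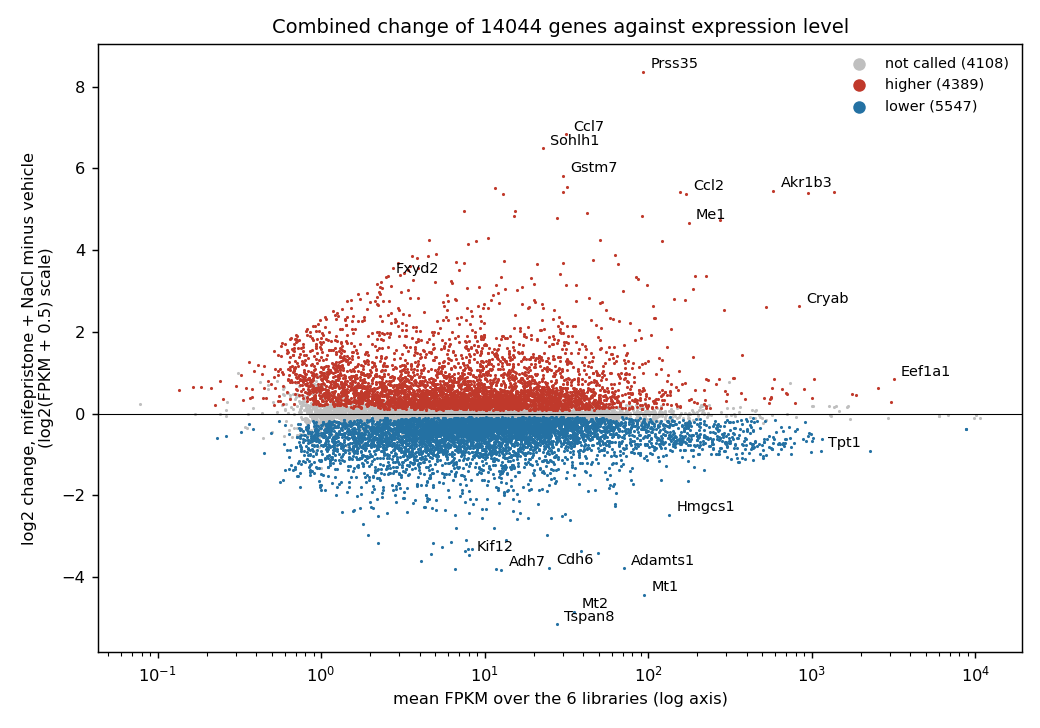
Combined change (mifepristone with NaCl minus vehicle, log2 of FPKM + 0.5) of each of 14044 tested genes against its mean level over the 6 libraries on a log axis, with genes called higher in red, lower in blue and not called in grey. The largest rises reach far beyond the largest falls, and most of the 9936 called genes lie close to 0.

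4 promoters are shown because they hold letters that homeodomain factors, NFAT5 or NF-kB are known to bind, and which factor acts on them was not tested. They are given as the 250 bases before a start of the gene in RefSeq's annotation of GRCm38.p6, 5′ to 3′ on the gene's strand. The motif is in capitals. Where RefSeq lists several starts, the window with the lowest coordinate was taken. For a gene on the minus strand, such as Nr1h4, that is the most downstream start, which may lie inside the gene. Pde4c (a cAMP-degrading enzyme, chr8:70723814-70724063, plus strand) and Nr1h4 (the bile acid receptor FXR, chr10:89506659-89506908, minus strand) carry GTTAAT, the core of the site of homeodomain factors of this family, Pde4c on the opposite strand as ATTAAC at 124 to 119 bases before the start and Nr1h4 at 40 to 35 bases. Slc6a12 (the betaine transporter, chr6:121342324-121342573, plus strand) carries TGGAAA, the core of the element that NFAT5 binds, at 75 to 70 bases. Cxcl1 (a neutrophil-attracting chemokine, chr5:90890995-90891244, plus strand) carries an NF-kB site of the form GGGA, any 2 bases, TTCC, which reads on both strands in 2 overlapping matches at 71 to 61 bases.
Pde4c: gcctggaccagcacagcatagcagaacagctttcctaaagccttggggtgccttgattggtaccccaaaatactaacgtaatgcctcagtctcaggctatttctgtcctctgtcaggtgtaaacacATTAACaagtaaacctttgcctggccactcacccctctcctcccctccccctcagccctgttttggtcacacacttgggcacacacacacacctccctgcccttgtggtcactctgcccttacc
Nr1h4: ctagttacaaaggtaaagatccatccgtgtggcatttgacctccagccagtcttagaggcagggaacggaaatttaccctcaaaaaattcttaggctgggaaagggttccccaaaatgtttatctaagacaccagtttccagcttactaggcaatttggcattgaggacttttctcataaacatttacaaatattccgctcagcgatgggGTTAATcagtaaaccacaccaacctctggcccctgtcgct
Slc6a12: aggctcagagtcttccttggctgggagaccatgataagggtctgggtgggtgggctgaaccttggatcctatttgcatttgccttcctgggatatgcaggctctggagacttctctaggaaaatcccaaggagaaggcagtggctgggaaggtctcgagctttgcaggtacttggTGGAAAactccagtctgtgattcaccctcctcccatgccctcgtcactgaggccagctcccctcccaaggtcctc
Cxcl1: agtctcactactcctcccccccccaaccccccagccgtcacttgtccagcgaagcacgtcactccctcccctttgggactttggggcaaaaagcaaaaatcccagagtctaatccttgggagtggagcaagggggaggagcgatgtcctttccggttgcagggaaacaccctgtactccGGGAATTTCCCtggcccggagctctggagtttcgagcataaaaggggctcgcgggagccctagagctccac

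A match of these letters is a description and not a binding site. The search covered both strands of the 250 bases before each start in the promoter table. GTTAAT occurred in 4.74% of the 8793 tested genes with a promoter entry. The shares were 6.38% of 596 genes that were at least 2-fold higher and 6.86% of 452 genes at least 2-fold lower. TGGAAA occurred in 17.4%, 21.6% and 18.4% of the same groups, and the NF-kB form in 1.54%, 2.85% and 1.99%. Over all 32851 windows of the table the shares were 6.43%, 18.6% and 1.21%. Those count each window singly, whereas a gene was counted if any of its windows held the motif. Each motif was thus somewhat more frequent among genes changed at least 2-fold, in both directions, than among all tested genes, and no share carries a test. Some of these differences are small. The NF-kB shares rest on 17 higher and 9 lower genes, and TGGAAA among lower genes, 18.4%, lay close to 17.4%.

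Genes of the osmotic response rose most. Of 25 listed genes 23 passed the filter, 18 were higher (78.3%, against 31.3% of all tested genes) and 3 lower, with a median change of 2.0. The list was assembled with earlier results of these data known and is no independent evidence of its direction. Akr1b3 encodes aldose reductase, which makes sorbitol from glucose (chr6:34302434-34317478, minus strand, GRCm38). Its level was 28, 24.2 and 24.5 FPKM in vehicle A, B and C and 1175, 1152 and 1091 FPKM in the libraries with both treatments. No library of one group came near the other, and the change was 5.45 (SE 0.083, adjusted p = 1.16e-12), a 43.8-fold rise. NaCl alone gave 864.7, 794.9 and 860.2 FPKM and mifepristone alone 39.7, 37.7 and 46.7 FPKM.

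Near-identical copies may share reads with Akr1b3. The processed pseudogene Gm6736 rose from a mean of 62.4 to 2692 FPKM and Gm12138 from 43.6 to 1860 FPKM, with changes of 5.42 and 5.40. These copies were singled out after their values were seen. Of all stretches of 50 bases in their GENCODE transcripts, 72.7% and 60.6% also occur in transcripts of Akr1b3, and 22.2% of those of Gm38056, which rose 42.9-fold. The malic enzyme gene Me1, which makes NADPH, had such a copy in Gm7329, with 85.1% of its stretches shared and a change of 4.74 beside 4.66 for Me1. The FPKM of the parents and copies can therefore not be separated from each other.

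The transporters that import osmolytes differed in how much they rose. Slc6a12, the betaine transporter whose promoter is printed above, spans chr6:121343076-121365775 (plus strand) in GENCODE. The printed window ends at chr6:121342573, before a RefSeq start that lies upstream of the GENCODE start. Slc6a12 had 0, 4 and 2 reads in vehicle and 3085, 2982 and 3727 with both treatments, a ratio of 1607 (95% interval 738.1 to 4380). It went from nearly silent to 22.1, 23.2 and 24.4 FPKM, where NaCl alone had given 9.54, 10.3 and 11.2 FPKM. Slc5a3, which imports myo-inositol, read 5.87, 6.06 and 6.02 FPKM in vehicle and 56.3, 53.4 and 62.1 FPKM with both treatments, a change of 3.15 (SE 0.092, adjusted p = 1.18e-10). Each single treatment alone gave a log2 change of 2.02, to 24.8, 26.1 and 26.3 FPKM with NaCl and 29.8, 26.4 and 21.8 FPKM with mifepristone. Slc6a6, which imports taurine, rose less, from 43.1, 49.3 and 52.1 to 110.7, 108.4 and 123.1 FPKM (1.24, SE 0.1, adjusted p = 8.81e-07). The mRNA of NFAT5 itself, Nfat5, rose from 28.1, 33.9 and 35.8 to 68.7, 69.2 and 81.1 FPKM (1.15, SE 0.17, adjusted p = 7.37e-05), a 2.22-fold change close to that of Slc6a6 and far below those of Slc6a12 and Slc5a3, and no library of the groups overlapped.

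Listed genes outside the osmolyte pathway rose as well, Prss35 by more than any other member. Prss35, a gene of the trypsin-like serine protease family, had 31 reads in the 3 vehicle libraries together and 88684 with both treatments, a ratio of 2817 (95% interval 1984 to 4146), and reached 193.6, 181.5 and 184.7 FPKM. Ranbp3l, related to nuclear export factors, rose from 54 to 10827 reads, a ratio of 197.4 (95% interval 151.2 to 263.0). Rnf183, a membrane-bound ubiquitin ligase gene, read 0.984, 0.821 and 0.891 FPKM in vehicle and 61, 58.9 and 57.4 FPKM with both (5.41, SE 0.075, adjusted p = 7.17e-13). Among the 3 list members that fell, the values stayed close to those of vehicle, namely -0.53 (SE 0.051) for the prostaglandin synthase gene Ptges2, -0.22 (SE 0.088) for the amino acid transporter gene Slc38a1 and -0.20 (SE 0.048) for the small heat shock gene Hspb8. The call of Slc38a1 was lost in 10 of the 23 other fits read at an adjusted p under 0.05.

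Heat shock genes, which code for chaperones of the cytosol, went in both directions. Of 23 genes, all tested, 11 rose (47.8%, against 31.3% of all tested genes) and 6 fell (26.1%, against 39.5%), with a median of 0.14. The inducible Hsp70 genes Hspa1b and Hspa1a rose by 3.37 (SE 0.048) and 3.34 (SE 0.044), Hspa1b from 39.9, 38.1 and 40.6 to 423.4, 398.1 and 422.8 FPKM. This pair of genes is nearly identical in its coding sequence, so reads could have been split between the members. Hsph1, a partner that recharges Hsp70, went from 19.7, 19.9 and 18.9 to 179.4, 174.3 and 178.1 FPKM (3.15, SE 0.036, adjusted p = 1.83e-13), and the small heat shock gene Cryab from 250.9, 229.6 and 215.7 to 1499, 1457 and 1345 FPKM (2.63, SE 0.087, adjusted p = 3.37e-10). In the other direction, the constitutive Hsp70 gene Hspa8 fell from 717.9, 706.8 and 691.4 to 348.9, 355.5 and 339.3 FPKM (-1.02, SE 0.051, adjusted p = 8.99e-09) and the Hsp90 co-chaperone gene Fkbp4 by -1.29 (SE 0.055). The inducible and the constitutive Hsp70 mRNAs thus moved in opposite directions, with no overlap between groups for either.

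Genes tied to the mutated factor in kidney were mostly lower. Of 31 genes taken from knowledge of this factor 26 were tested. Of these 17 fell (65.4%, against 39.5% of all genes) and 5 rose, with a median of -0.82. Like the other lists, this list was assembled with earlier results of these data known and is no independent evidence of its direction. Kif12, a kinesin gene of the cilium, read 15.1, 15.4 and 15.1 FPKM in vehicle and 1.06, 0.806 and 0.929 FPKM with both treatments, an 11-fold fall (-3.46, SE 0.059, adjusted p = 2.19e-12). Pkhd1, mutated in autosomal recessive polycystic kidney disease (chr1:20057779-20618064, GRCm38), went from 9.42, 12.3 and 14.6 to 1.16, 1.34 and 1.38 FPKM (-2.79, SE 0.18, adjusted p = 1.12e-07). Cys1, mutated in the cpk mouse with cystic kidneys, went from 14.9, 14.3 and 13.3 to 0.99, 0.944 and 0.86 FPKM (-3.36, SE 0.058, adjusted p = 2.42e-12). Mifepristone alone gave 1, 1.03 and 0.98 FPKM for Kif12 and 2.27, 2.07 and 1.21 FPKM for Pkhd1.

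Pde4c, whose product degrades cAMP near the cilium, read 8.77, 8.87 and 9.61 FPKM in vehicle and 0.421, 0.313 and 0.403 FPKM with both treatments (-3.45, SE 0.066, adjusted p = 4.64e-12). Cdh6, a cadherin of the developing nephron, fell from 36.5, 46.2 and 56.4 to 3.04, 2.41 and 3.22 FPKM (-3.77, SE 0.16, adjusted p = 2.94e-09). Umod, the gene of uromodulin, had 1453 reads in the vehicle libraries and 18 with both treatments, an 82-fold lower count (95% interval 51.7 to 138.7). The urea transporter gene Slc14a2 fell from 2.07, 2.38 and 2.23 to 0.327, 0.216 and 0.299 FPKM (-1.81, SE 0.082, adjusted p = 4.11e-09). Pkd2, mutated in dominant polycystic kidney disease, moved least of the members named in this and the preceding paragraph. It went from 14.3, 15.1 and 15.1 to 11.6, 11.5 and 11.9 FPKM (-0.33, SE 0.054, adjusted p = 0.000217).

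Among the 5 members that rose, Kcnj16, Slc17a1 and Fxyd2 were far higher with NaCl alone than with both treatments, and Fxyd2 is given with the sodium pump. Kcnj16, a potassium channel subunit gene, had 29.9, 29.8 and 31.2 FPKM in vehicle, 181.3, 182.4 and 188.3 with NaCl, 9.27, 8.4 and 8 with mifepristone and 62.3, 60.8 and 60.6 with both. The combined level lay above vehicle (1.0, SE 0.048, adjusted p = 6.94e-09) and well below that with NaCl alone. Slc17a1, a sodium-phosphate transporter gene, had 1.18, 1.05 and 0.997 FPKM in vehicle, 45.1, 46.1 and 46.3 with NaCl and 3.77, 3.63 and 3.26 with both (1.36, SE 0.06, adjusted p = 3.19e-09). Socs3, an inhibitor of cytokine signalling, rose from 4.37, 4.44 and 5.02 to 16.5, 15.7 and 15.1 FPKM (1.67, SE 0.054, adjusted p = 2.94e-10). The kidney cadherin gene Cdh16 moved like Kcnj16 in its single changes, at 673.4, 671.6 and 683.6 FPKM with NaCl and 32.5, 31.2 and 31.2 with mifepristone, and with both it settled at 124.7, 119.3 and 119.7 FPKM, below the 183.5, 185.4 and 195.2 FPKM of vehicle (-0.63, SE 0.04, adjusted p = 8.15e-08).

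**Figure D2:**
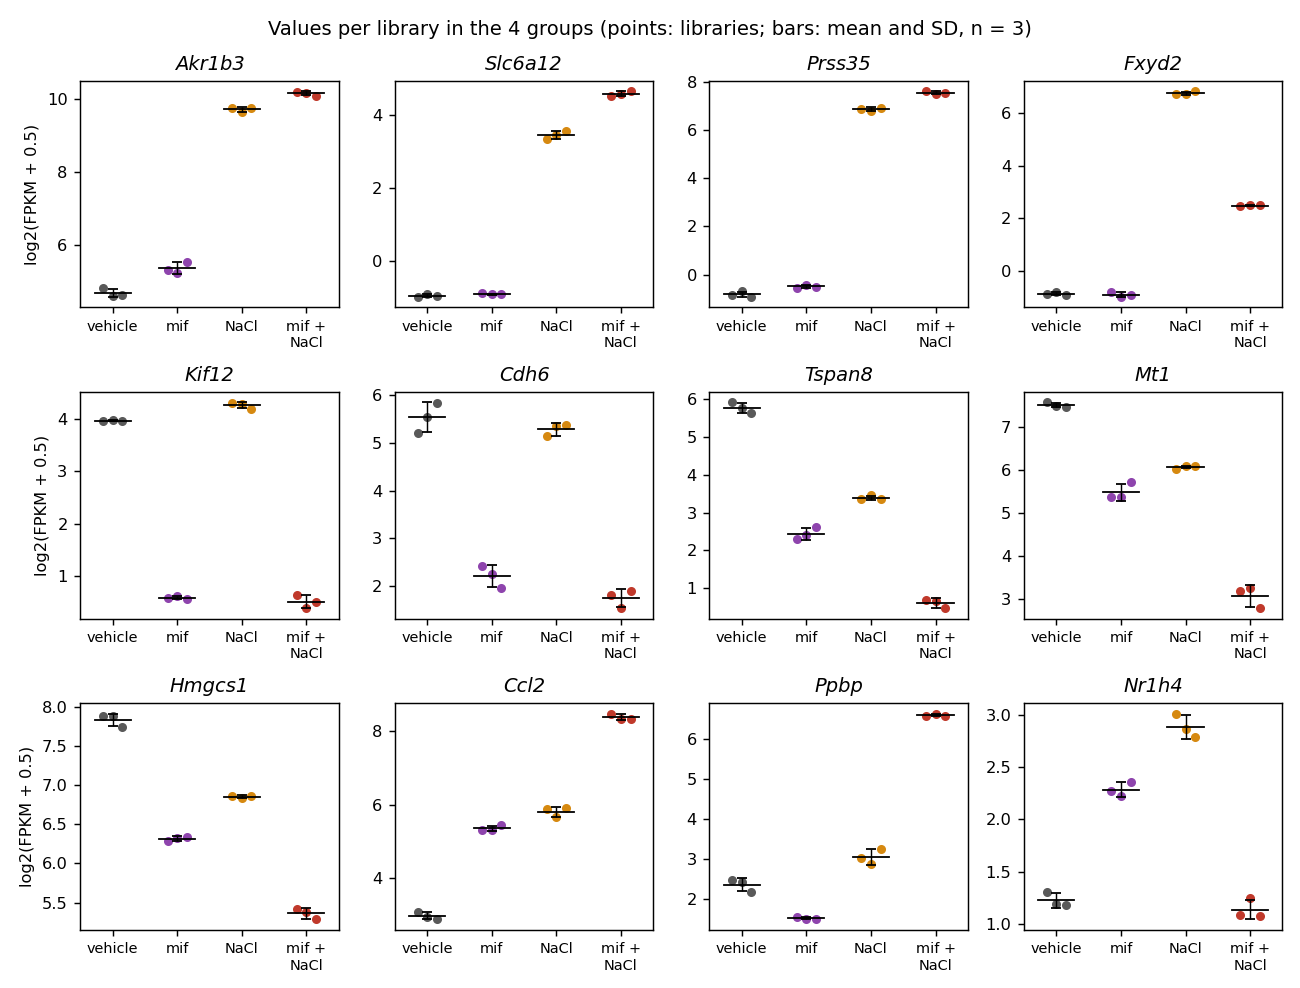
Level of 12 genes as log2(FPKM + 0.5) in each of the 12 libraries (points) by group (vehicle, mifepristone, NaCl, and both), with bars at the mean and SD of 3 libraries. Libraries with both treatments lie above vehicle for Akr1b3, Slc6a12, Prss35, Fxyd2, Ccl2 and Ppbp, below it for Kif12, Cdh6, Tspan8, Mt1 and Hmgcs1, and overlap it for Nr1h4.

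Genes of the primary cilium, the antenna on which polycystin and hedgehog signals are received, fell by modest amounts. Of 42 genes 41 were tested, 30 fell (73.2%, against 39.5% of all tested genes) and 4 rose, and the median was -0.38. Only Cc2d2a and Tmem231, genes of the ciliary transition zone that gates entry to the cilium, fell at least 2-fold. Cc2d2a went from 4.56, 4.94 and 5.13 to 1.21, 1.01 and 1.21 FPKM (-1.71, SE 0.091, adjusted p = 1.75e-08) and Tmem231 from 13.5, 13.1 and 13.4 to 4.91, 4.93 and 5.07 FPKM (-1.34, SE 0.037, adjusted p = 7.27e-11). Further transition zone genes, Tctn1 and Rpgrip1l, changed by -0.97 (SE 0.075) and -0.88 (SE 0.072). The members that rose were the Bardet-Biedl syndrome genes Bbs2 (0.49, SE 0.037) and Ttc8 (0.44, SE 0.044) and the intraflagellar transport genes Ift46 (0.25, SE 0.039) and Ift80 (0.10, SE 0.037), of which Ift80 lost its call in 9 of the 23 other fits. Departure from the sum of the single changes was called in 14 of the 41 genes, all 14 toward a higher level than the sum (13.6% of all tested genes stood above it and 17.5% below).

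The 12 largest falls among genes with a proper symbol were not confined to that list. Tspan8, a tetraspanin of the cell surface, fell furthest, from 59.8, 53.6 and 49 FPKM in vehicle to 1.1, 1.09 and 0.879 FPKM (-5.16, SE 0.093, adjusted p = 3.63e-12). NaCl alone had brought it to 9.69, 10.5 and 9.67 FPKM and mifepristone alone to 4.45, 4.75 and 5.59 FPKM, so the combined level lay below each. Foxj1, the master regulator of motile cilia, fell from 22, 22 and 23 to 1.13, 1.24 and 1.07 FPKM (-3.79, SE 0.058, adjusted p = 1.1e-12). Adh7, an alcohol dehydrogenase that also oxidises retinol, fell from 24.1, 24.7 and 23.4 to 1.29, 1.14 and 1.27 FPKM (-3.83, SE 0.055, adjusted p = 7.62e-13). Efhd1, a calcium-binding protein of mitochondria, changed by -3.81 (SE 0.068) and the matrix protease gene Adamts1 by -3.78 (SE 0.053), the latter from a high level of 128.3, 132.8 and 135.8 FPKM. A true or false entry in the authors' deposited table says whether a ChIP peak lies near a gene, and it was true for 10 of these 12, all but Mt1 and Mt2.

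That mark covered 3987 of the tested genes (28.4%). Among marked genes 34.1% were higher and 43.3% lower, beside 30.1% and 38% of the unmarked genes. Of the marked genes 9.08% were at least 2-fold higher and 8.83% at least 2-fold lower, beside 5.74% and 3.51% of unmarked genes. The mark was present on 73 of the 100 largest falls and on 38 of the 100 largest rises. Of the 12 largest rises 2 carried it, the protease gene Prss35 and the potassium channel gene Kcnj2. The sources used here do not say which factor, cells and distance the mark rests on, and these shares carry no test.

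Genes of sodium and chloride transport went both ways. Of 32 listed genes 18 passed the filter, 8 rose and 8 fell (median 0.09). Each share was 44.4%, against 31.3% of all tested genes higher and 39.5% lower. Atp1b1, the beta subunit of the sodium pump, rose from 87.6, 85.8 and 84 to 506.1, 490.2 and 491.8 FPKM (2.52, SE 0.038, adjusted p = 8.87e-13), one of the 8 largest gains in FPKM among genes with a proper symbol. Fxyd2, the gamma subunit that tunes the pump in kidney (chr9:45399669-45410278, GRCm38), had 1, 2 and 1 reads in vehicle and 145, 136 and 165 with both treatments, a ratio of 109.8 (95% interval 42.6 to 404.7). Its levels with both treatments, 5.01, 5.12 and 5.21 FPKM, were far below the 106.5, 105.9 and 113.8 FPKM of NaCl alone.

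Of the members that fell, Wnk4, a kinase that regulates salt cotransporters, changed most, from 7.26, 8.03 and 7.82 to 1.42, 1.55 and 1.36 FPKM (-2.08, SE 0.05, adjusted p = 2.37e-11). The potassium-chloride cotransporter genes Slc12a4 and Slc12a7 changed by -0.98 (SE 0.053) and -0.87 (SE 0.081), and the chloride channel gene Clcn2 by -0.96 (SE 0.059). Slc26a4, the anion exchanger pendrin of intercalated cells, rose from 22 to 575 reads, a ratio of 25.7 (95% interval 16.8 to 41.4), and still reached only 1.41, 1.38 and 1.29 FPKM. Aqp1, a water channel that in the animal is found in proximal tubule and thin limbs, read 39.1, 37.7 and 40.4 FPKM in vehicle and 146.9, 138.4 and 138.7 FPKM with both (1.84, SE 0.043, adjusted p = 1.77e-11). It had been higher with NaCl alone, at 442.3, 433.5 and 428.2 FPKM, and lower with mifepristone alone, at 5.7, 5.47 and 5.93 FPKM. Kcnj2, an inward rectifier potassium channel gene, was among the largest rises, from 0.865, 0.841 and 0.827 to 59.8, 63.8 and 64.6 FPKM (5.55, SE 0.066, adjusted p = 2.54e-13).

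Tight junction genes, which seal the epithelium and set its ion selectivity, were more often lower. Of 22 genes 17 were tested and 9 fell (52.9%, against 39.5% of all tested genes). The 4 that rose were 23.5%, against 31.3%, and the median was -0.52. Cldn2, the claudin of a cation-leaky junction, fell from 7.89, 7.91 and 8.09 to 0.19, 0.2 and 0.186 FPKM (-3.61, SE 0.057, adjusted p = 1.22e-12), and both single treatments had lowered it, to 1.1, 0.95 and 0.891 FPKM with NaCl and 1.39, 1.29 and 1.35 FPKM with mifepristone. Occludin, Ocln, fell from 8.46, 8.11 and 8.28 to 2.93, 2.55 and 2.59 FPKM (-1.46, SE 0.053, adjusted p = 6.43e-10). Cldn7 and Cldn3 changed by -1.44 (SE 0.074) and -1.44 (SE 0.077), whereas Cldn4, the most highly expressed claudin on the list, rose from 122.1, 109.9 and 112.8 to 189.1, 177.5 and 176.7 FPKM (0.65, SE 0.064, adjusted p = 2.95e-06). The scaffold gene Tjp1 had 24.3, 28.5 and 29.7 FPKM in vehicle and 33.4, 33.9 and 36.4 with both, and its call was lost in 8 of the 23 other fits.

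Chemokine and NF-kB target genes, which recruit leukocytes and are induced by inflammatory signals, rose in nearly every tested case. Of 26 listed genes 19 passed the filter, 18 rose (94.7%, against 31.3% of all tested genes) and 1 fell, with a median of 0.92. Members nearly silent in vehicle, such as Ccl7, Cxcl2 and Ccl20, passed the filter only through treated libraries. The share and the median therefore partly follow from the filter. Ccl2, the main monocyte chemoattractant (chr11:82035571-82037453, GRCm38), read 8.09, 7.3 and 6.99 FPKM in vehicle and 354.0, 321.3 and 318.1 FPKM with both treatments (5.38, SE 0.077, adjusted p = 7.63e-13). Its neighbour Ccl7, which acts through shared receptors on monocytes, went from 6 reads over the vehicle libraries to 6955, a ratio of 1141 (95% interval 524.1 to 3111), and to 69.6, 58 and 61 FPKM. The neutrophil chemokine Cxcl1, whose promoter is printed above, rose from 2.9, 2.31 and 2.68 to 40.8, 41.1 and 35.2 FPKM (3.66, SE 0.099, adjusted p = 6.58e-11), and Cxcl2 from 53 to 2168 reads, a ratio of 40.3 (95% interval 30.7 to 53.9). For all 4 chemokines the 3 libraries with both treatments stood above every library with a single treatment. The summed leukocyte markers were lower with both treatments (11.6 to 12.1 FPKM, beside 27.5 to 29.8 in vehicle). The sum rests on Csf1r, a growth factor receptor gene of macrophages, which fell from 23.9, 25.7 and 26.7 to 5.99, 5.96 and 6.38 FPKM, while Cd68, a lysosomal gene of macrophages, rose from 3.36, 3 and 2.98 to 5.69, 5.13 and 5.24 FPKM. The other 7 of 9 leukocyte markers, Ptprc among them, stayed below 1 FPKM, and the part of leukocytes in the chemokine rise was not tested. Bcl3, a nuclear member of the NF-kB inhibitor family, was the exception and changed by -0.85 (SE 0.095).

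Interferon response genes, which act against viruses, rose in 32 of 33 tested cases (97%, against 31.3% of all tested genes) and fell in 1. The median of the list was 1.03, and 17 of its genes rose at least 2-fold. Ifi27l2a rose most, from 6.53, 5.4 and 5.29 to 201.8, 170.4 and 162.1 FPKM (4.84, SE 0.1, adjusted p = 1.21e-11). The guanylate-binding protein gene Gbp2 rose from 8.24, 6.85 and 8.06 to 34.3, 29.1 and 28.5 FPKM (1.92, SE 0.081, adjusted p = 2.54e-09), Ifit1 by 1.69 (SE 0.067) and Irf7, a transcription factor of the interferon response, by 1.66 (SE 0.081). The single gene that fell, Ifit3, was at the highest level of these, with 333.9, 322.8 and 321.3 FPKM in vehicle and 246.6, 209.0 and 200.9 FPKM with both (-0.58, SE 0.073, adjusted p = 2.59e-05). Genes of MHC class I presentation, which shows peptides at the cell surface and is often raised with interferon genes, split evenly. Of 13 genes 6 were higher and 6 lower, 46.2% each, against 31.3% and 39.5% of all tested genes. The median was -0.24, and 0.33 when only genes of at least 5 FPKM were tested. The nonclassical class I gene H2-T23 rose by 1.81 (SE 0.073) and the peptide loading gene Tapbp by 0.77 (SE 0.065), while beta-2-microglobulin, B2m, fell from 413.4, 354.9 and 354.1 to 272.5, 252.6 and 222.6 FPKM (-0.59, SE 0.089, adjusted p = 0.000119) and the peptide transporter gene Tap1 changed by -0.62 (SE 0.06). Class I genes are similar in sequence and could share reads.

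Of 19 complement and acute phase genes only 10 passed the filter. Of these 6 were higher (60%, against 31.3% of all tested genes) and 4 lower (40%, against 39.5%). The median of 0.45 ran from -0.41 to 0.64 over the alternatives. The protease inhibitor gene Slpi rose from 0.528, 0.454 and 0.697 to 9.23, 10.3 and 8.65 FPKM (3.23, SE 0.11, adjusted p = 3.79e-10), and complement C3, the central component of the cascade, from 2.69, 2.85 and 3.32 to 13.4, 13.6 and 14.1 FPKM (2.04, SE 0.083, adjusted p = 1.79e-09). With mifepristone alone these genes had been higher, at 51.5, 53.6 and 64.7 FPKM for Slpi and 22.7, 24 and 19.3 FPKM for C3. Lcn2, the iron-scavenging protein of injured tubules, fell from 29.6, 26.1 and 26.8 to 4.04, 4.38 and 4.03 FPKM (-2.59, SE 0.058, adjusted p = 1.66e-11), a level that NaCl alone also gave (4.19, 4.27 and 4.04 FPKM). Slpi and C3 thus ended between vehicle and mifepristone alone, and Lcn2 at the level of NaCl alone.

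Every gene of cholesterol synthesis and uptake that was called fell. Of 25 genes, all tested, 24 fell (96%, against 39.5%) and 0 rose, 18 of them fell at least 2-fold, and the median was -1.31. Hmgcs1, which makes the HMG-CoA that enters the pathway, fell from 235.4, 234.6 and 214.3 to 42.3, 41.2 and 38.5 FPKM (-2.47, SE 0.049, adjusted p = 5.75e-12). The late enzymes Lss and Msmo1 changed by -1.87 (SE 0.065) and -1.89 (SE 0.057). Pmvk, the phosphomevalonate kinase, was the only member not called (0.01, SE 0.072, adjusted p = 0.91). The summed level of the list ran from 1313 to 1363 FPKM in vehicle and from 478.8 to 493.4 FPKM with both treatments. For Hmgcs1 NaCl alone gave 116.1, 113.6 and 115.3 FPKM and mifepristone alone 77.4, 79.3 and 80.7 FPKM, and departure from the sum of these changes was 0.03 (SE 0.069, adjusted p = 0.757).

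Fatty acid genes, which share the SREBP transcription factors with cholesterol synthesis, fell less. Of 17 genes 16 were tested, 10 fell (62.5%, against 39.5% of all tested genes) and 1 rose (median -0.18). Acly, which makes cytosolic acetyl-CoA, changed by -1.05 (SE 0.058) and the elongase gene Elovl6 by -1.04 (SE 0.079), while fatty acid synthase, Fasn, changed by -0.20 (SE 0.14, adjusted p = 0.235). Me1 alone rose, from 13.7, 13.2 and 12.1 to 358.2, 329.0 and 338.2 FPKM (4.66, SE 0.052, adjusted p = 1.83e-13), beside NaCl alone (233.6, 217.0 and 225.3 FPKM), with the reservation on its copy given above.

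Genes of glycolysis and the hypoxic response split, with 9 of 24 tested genes higher and 12 lower (median -0.14, and 0.17 under quantile normalization). The shares were 37.5% higher and 50% lower, against 31.3% and 39.5% of all tested genes. Pfkfb3, whose product raises the activator of phosphofructokinase, rose from 0.607, 0.541 and 0.593 to 7.5, 6.75 and 7.41 FPKM (2.84, SE 0.06, adjusted p = 8.85e-12) and the aldolase gene Aldoc from 2.08, 2.59 and 2.29 to 19, 17.3 and 16.2 FPKM (2.67, SE 0.075, adjusted p = 8.47e-11). Vegfa, the angiogenic growth factor, rose by 1.38 (SE 0.043). Hexokinases went in opposite directions, Hk1 by 0.48 (SE 0.041) and Hk2 by -1.72 (SE 0.059). The glucose transporter gene Slc2a1 fell from 74.7, 70 and 74 to 47.1, 46 and 42.3 FPKM (-0.69, SE 0.045, adjusted p = 1.06e-07), although NaCl alone had raised it to 109.2, 108.5 and 108.3 FPKM.

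Amino acid and glutathione enzymes held several of the largest single changes. Of 21 genes of arginine, transsulfuration and serine metabolism 13 were tested, 6 higher and 6 lower. Each share was 46.2%, against 31.3% of all tested genes higher and 39.5% lower. Ass1, which joins citrulline and aspartate in arginine synthesis, rose from 48 to 2935 reads, a ratio of 60.2 (95% interval 45.3 to 81.8). With mifepristone alone Ass1 had more, 5078 reads, and with NaCl alone 43. Psat1, an enzyme of serine synthesis, rose from 42.3, 39.6 and 40 to 345.3, 339.2 and 327.2 FPKM (3.04, SE 0.045, adjusted p = 7.63e-13). Cbs, the first enzyme of transsulfuration, fell from 10.9, 11.8 and 12 to 0.862, 0.904 and 0.836 FPKM (-3.14, SE 0.052, adjusted p = 1.73e-12), and Phgdh, the step before Psat1, changed by -0.54 (SE 0.068), so the 2 neighbouring steps of serine synthesis moved in opposite directions. Of 31 NRF2 targets and glutathione genes 22 were tested, 9 higher (40.9%) and 8 lower (36.4%), with a median of 0.07. The glutathione transferase gene Gstm7 rose from 0.649, 0.488 and 0.578 to 59.4, 63.1 and 57.6 FPKM (5.82, SE 0.084, adjusted p = 7.63e-13), beside 41, 43.3 and 47.6 FPKM with mifepristone alone. Members of the Gstm family are similar and can share reads. Srxn1, which repairs peroxiredoxins, rose by 2.13 (SE 0.035), whereas glutathione reductase, Gsr, fell from 83.7, 79.5 and 76.4 to 29.1, 29.7 and 29.5 FPKM (-1.42, SE 0.04, adjusted p = 8.05e-11) and catalase, Cat, by -1.33 (SE 0.039).

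The metallothionein genes, whose products bind zinc and copper, were among the largest falls. Mt1 went from 188.3, 178.3 and 176.1 to 8.53, 8.99 and 6.36 FPKM (-4.44, SE 0.12, adjusted p = 5.75e-11) and Mt2 from 72.8, 69.1 and 64.7 to 2.24, 2.01 and 1.51 FPKM (-4.85, SE 0.11, adjusted p = 2.17e-11). Both single treatments lowered Mt1, NaCl to 64.6, 67.3 and 66.9 FPKM and mifepristone to 40.4, 40.9 and 51.6 FPKM, and the combined level lay below each. The zinc exporter gene Slc30a1, which like the metallothioneins is a target of the zinc sensor MTF1, rose from 3.04, 3.24 and 3.26 to 17.1, 16.2 and 16.5 FPKM (2.21, SE 0.037, adjusted p = 1.73e-12), as did the transporter genes Slc30a4 (1.51, SE 0.044) and Slc39a10 (1.13, SE 0.067). Of 12 metallothionein and zinc genes 8 were tested, 4 higher (50%, against 31.3% of all tested genes) and 3 lower (37.5%, against 39.5%). An antisense gene shares 73.5% of the exonic bases of Mt2, and the sources used here do not say whether counting used strand.

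Ribosomal protein genes fell as a block. All 37 tested members were lower (100%, against 39.5% of all tested genes), by between -0.98 and -0.26 with a median of -0.68. Their summed level ran from 16066 to 18164 FPKM in the vehicle libraries and from 10226 to 11100 FPKM with both treatments. Rpl5 fell from 367.3, 342.5 and 323.9 to 178.4, 179.8 and 163.7 FPKM (-0.98, SE 0.08, adjusted p = 7.07e-07) and Rpl32 from 680.5, 631.6 and 612.9 to 326.1, 337.0 and 311.0 FPKM (-0.98, SE 0.077, adjusted p = 4.81e-07). Quantile normalization kept 35 of the 37 calls with a median of -0.42, and the median without vehicle A was -0.63. The median exon length of the list was 2007 bases, taken over all annotated exons of a gene, which can exceed the length of its mRNA. Over tested genes with an exon length, the shortest quintile (up to 1279 bases) had a median change of -0.11 and the longest -0.02. The part of transcript length in the fall was not tested. Ribosomal proteins have many processed pseudogenes, which may share reads with them.

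Other genes of translation took part in the largest shifts of FPKM. Tpt1, an abundant growth-related protein gene, lost most FPKM among nuclear genes with a proper symbol, from 1615, 1457 and 1391 to 808.8, 830.6 and 730.5 FPKM (-0.91, SE 0.09, adjusted p = 3.63e-06), followed by Rps15 (-0.94, SE 0.091). The elongation factor gene Eef2 fell from 1088, 1130 and 1178 to 709.2, 711.9 and 726.1 FPKM (-0.66, SE 0.046, adjusted p = 1.76e-07). Eef1a1, which delivers tRNA to the ribosome, moved the opposite way, from 2372, 2223 and 2210 to 4114, 4191 and 3896 FPKM (0.84, SE 0.061, adjusted p = 2.44e-07), the largest gain in FPKM among nuclear genes with a proper symbol. Next in gain came Cryab, Akr1b3, Igfbp7 (2.61, SE 0.073) and the ubiquitin gene Ubb (0.47, SE 0.065). Nuclear genes of oxidative phosphorylation changed by between -0.55 and 0.55, with 4 of 42 higher, 16 lower and 22 not called (median -0.11). The shares of these genes were 9.52% higher and 38.1% lower, against 31.3% and 39.5% of all tested genes. Their counts depended on scaling, with 8 higher and 14 lower under median-ratio scaling and 15 higher and 18 lower under quantile normalization.

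Matrix genes, of which 24 of 38 were tested, rose in 8 cases and fell in 11 (median -0.20). The shares were 33.3% higher and 45.8% lower, near the 31.3% and 39.5% of all tested genes. The collagen genes Col4a3 and Col4a4, which share a promoter region and build the mature basement membrane of the kidney, rose together, Col4a3 from 10.3, 11.7 and 12.6 to 49.2, 51.2 and 57.3 FPKM (2.14, SE 0.12, adjusted p = 2.33e-08) and Col4a4 by 1.76 (SE 0.091). The metalloproteinase inhibitor gene Timp3 rose from 2.86, 3.14 and 3.25 to 32.4, 35.7 and 37.2 FPKM (3.31, SE 0.11, adjusted p = 2.47e-10). Basement membrane genes also fell, nidogen Nid2 by -1.81 (SE 0.067), laminin Lamb1 by -1.21 (SE 0.048) and Col18a1 by -1.13 (SE 0.056). Interstitial collagens Col1a1, Col1a2 and Col3a1 stayed below 1 FPKM in all 6 libraries.

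Targets of YAP and TEAD, factors that respond to cell tension, included some of the clear falls. Of 16 tested genes 8 fell (50%, against 39.5% of all tested genes) and 4 rose (25%, against 31.3%), with a median of -0.18. Ctgf went from 34.3, 30.4 and 30.4 to 4.94, 5.55 and 4.57 FPKM (-2.54, SE 0.076, adjusted p = 1.41e-10), Cyr61 from 104.8, 100.3 and 104.3 to 21.6, 22.9 and 21.6 FPKM (-2.20, SE 0.058, adjusted p = 5.66e-11), and tissue factor, F3, from 109.7, 102.3 and 98.1 to 23, 21.5 and 18.8 FPKM (-2.27, SE 0.076, adjusted p = 3.59e-10). Lats2, an inhibitor of YAP, rose by 1.34 (SE 0.059), although 42.4% of its exonic bases belong also to another gene model. In the Wnt pathway 12 of 26 tested genes rose and 12 fell, 46.2% each, against 31.3% and 39.5% of all tested genes. The receptor gene Fzd4 rose from 2.15, 2.33 and 2.58 to 21.4, 21.3 and 22.3 FPKM (2.96, SE 0.084, adjusted p = 8.96e-11), and Axin2, a feedback target, from 34 to 1272 reads, a ratio of 36.8 (95% interval 26.2 to 53.4). The ligand genes Wnt10a and Wnt4 changed by -2.18 (SE 0.092) and -1.69 (SE 0.071), and cyclin D1, Ccnd1, from 1.73, 1.67 and 1.85 to 0.255, 0.313 and 0.331 FPKM (-1.49, SE 0.083, adjusted p = 2.47e-08).

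Cell cycle genes changed by small amounts. Of 24 mitosis genes 14 fell (58.3%, against 39.5% of all tested genes) and 4 rose (median -0.17), none by 2-fold. The mitotic kinesin gene Kif23 changed by -0.63 (SE 0.037) and the kinase gene Aurkb by -0.48 (SE 0.033), while Anln, the scaffold of the cleavage furrow, rose by 0.35 (SE 0.045). Of 28 DNA replication genes 10 fell (35.7%), 7 rose (25%) and 11 were not called (median -0.03). Both shares lay below those of all tested genes. Cyclin E2, Ccne2, changed by 0.72 (SE 0.034) and the ribonucleotide reductase gene Rrm2 by -0.64 (SE 0.038). Of 17 tested p53 targets 8 rose (47.1%, against 31.3% of all tested genes) and 5 fell (29.4%, against 39.5%). The kinase gene Plk2 rose from 42.4, 42.4 and 42.8 to 156.6, 176.4 and 159.5 FPKM (1.93, SE 0.059, adjusted p = 1.62e-10), whereas the cell cycle inhibitor p21, Cdkn1a, fell from 65.4, 65.2 and 65 to 21.9, 24.6 and 21.5 FPKM (-1.51, SE 0.056, adjusted p = 9.04e-10) and was at 61.4, 65.4 and 60.1 FPKM with NaCl alone.

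The unfolded protein response and the ATF4 amino acid response gave no common direction, with 12 of 33 genes higher, 11 lower and 10 not called (median -0.03). The shares, 36.4% higher and 33.3% lower, lay near the 31.3% and 39.5% of all tested genes. The chaperone genes Hspa5 and Hsp90b1 of the endoplasmic reticulum changed by 0.25 (SE 0.056, adjusted p = 0.00225) and -0.29 (SE 0.044, adjusted p = 0.000109). Atf3, a stress-induced transcription factor gene, rose from 20.2, 19.6 and 19.5 to 45.8, 50.5 and 46.6 FPKM (1.25, SE 0.058, adjusted p = 5.59e-09), and the lipoprotein receptor gene Vldlr fell from 41.6, 44.1 and 44.3 to 5.22, 5.39 and 4.79 FPKM (-2.96, SE 0.064, adjusted p = 1.3e-11). Stanniocalcin 2, Stc2, changed by -2.42 (SE 0.051) and Herpud1, of protein degradation at the endoplasmic reticulum, by -1.27 (SE 0.04).

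**Figure D3:**
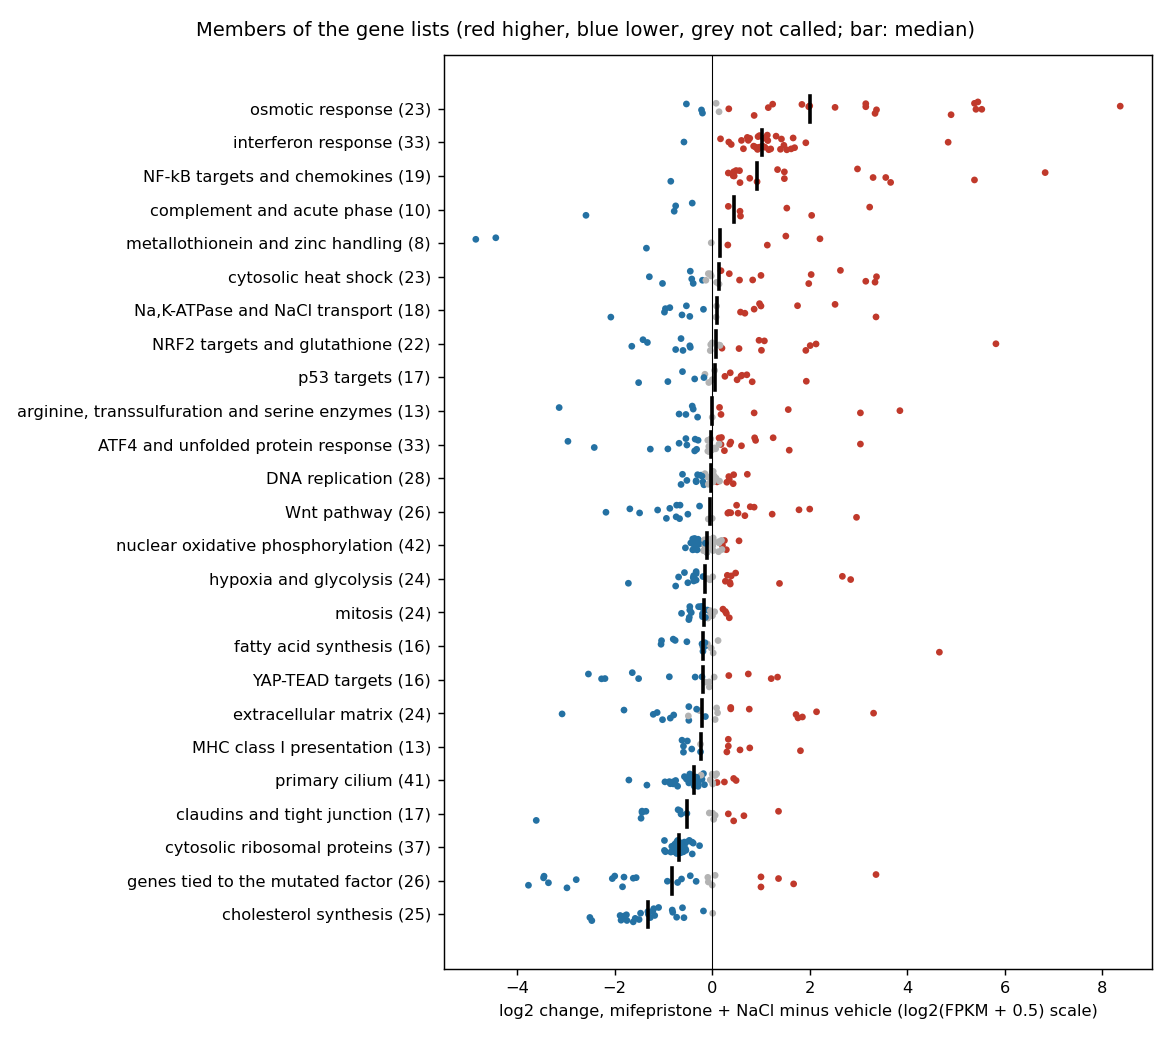
Combined change (log2) of the tested members of each gene list, 1 point a gene, with genes called higher in red, lower in blue and not called in grey, and a bar at the median of the list. The osmotic list has its median at 2.0, the cholesterol list at -1.31 and the ribosomal list at -0.68, while most other medians lie near 0.

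The combined change was set against the sum of the single changes on the log2 scale by a contrast over all 4 groups. This departure equals the NaCl effect in mifepristone cells minus that in vehicle cells. limma called 1915 genes above the sum (13.6%) and 2459 below it (17.5%), and 266 departed at least 2-fold. The genes named next were chosen by the values they show, so these are descriptions and not counts. Calls of departure are sensitive to single libraries, and their number rose to 6784 without mifepristone C.

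Above the sum stood genes whose level with both treatments was far above that of every other group. Ppbp, a platelet and neutrophil chemokine gene, had 5.05, 4.83 and 3.99 FPKM in vehicle, 7.65, 6.76 and 8.97 with NaCl, 2.42, 2.31 and 2.33 with mifepristone and 95.5, 99.1 and 95.7 with both, a departure of 4.40 (SE 0.13, adjusted p = 1.41e-08). The level with both was far above that of each other group. Loxl4, a lysyl oxidase-like enzyme gene of the matrix, had 6.81, 7.83 and 7.68 FPKM in vehicle, 20, 22 and 22.9 with NaCl, 6.69, 6.86 and 5.38 with mifepristone and 106.9, 114.3 and 130.4 with both (departure 2.63, SE 0.14, adjusted p = 3.92e-07). The calcium-binding protein gene S100b had 8 reads in vehicle, 24 with NaCl, 16 with mifepristone and 893 with both. Lrrn3, a leucine-rich repeat protein gene, had 5, 53, 4 and 1327 reads in the same order. The chemokine gene Ccl7 departed by 2.74 (SE 0.25) and the lipoxygenase gene Alox12e by 2.32 (SE 0.067), Alox12e with 926 reads under NaCl and 5859 with both.

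Below the sum stood genes that rose with at least 1 treatment alone and were much lower when both were given. Fxyd2 had the most negative departure, -4.25 (SE 0.078, adjusted p = 2.27e-10), followed by Nr1h4, whose promoter is printed above. Nr1h4 read 1.98, 1.78 and 1.77 FPKM in vehicle, 7.55, 6.77 and 6.39 with NaCl, 4.32, 4.17 and 4.63 with mifepristone and 1.63, 1.87 and 1.61 with both, so each treatment alone raised it, while with both 1 library lay within the range of vehicle and 2 just below it (-0.09, SE 0.071, adjusted p = 0.285, not called, and departure -2.80, SE 0.1, adjusted p = 3.41e-08). The imprinted gene Peg10 read 11.1, 12.5 and 12.4 FPKM in vehicle, 124.9, 120.7 and 92 with mifepristone and 11.6, 10.9 and 11.1 with both (departure -2.48, SE 0.14, adjusted p = 5.07e-07). The histone demethylase gene Kdm7a read 1.38, 1.41 and 1.46 FPKM in vehicle, 6, 6.02 and 6.47 with NaCl and 1.1, 1.11 and 1.23 with both (departure -2.39, SE 0.12, adjusted p = 2.7e-07). Npnt, the matrix ligand nephronectin, rose with NaCl to 69.2, 69.5 and 70.8 FPKM from 42.4, 44.5 and 45 FPKM in vehicle and fell to 7.13, 6.84 and 7.18 FPKM with both (-2.56, SE 0.055, adjusted p = 1.13e-11). Slc17a1 departed by -2.51 (SE 0.084).

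In other genes opposite single changes met near the starting level. Inmt, an indolethylamine methyltransferase gene, had 18.3, 17.2 and 18.1 FPKM in vehicle, 166.5, 158.6 and 163.9 with NaCl, 2.02, 1.89 and 2.12 with mifepristone and 23.9, 19.2 and 19.9 with both, a combined change of 0.22 (SE 0.07, adjusted p = 0.0146) and a departure of -0.06 (SE 0.099, adjusted p = 0.687). The mechanosensitive channel gene Piezo2 had 9.29, 11.1 and 11.9 FPKM in vehicle, 3.5, 4 and 3.75 with NaCl, 33.5, 32.2 and 23.3 with mifepristone and 9.69, 9.8 and 11 with both, and was not called in the combined comparison (-0.07, SE 0.13, adjusted p = 0.62). Neurl1b, a Notch ligand ubiquitin ligase gene, and Mettl7b behaved in the reverse order, raised by NaCl and lowered by mifepristone, with combined changes of -0.09 (SE 0.044, adjusted p = 0.0803) and -0.11 (SE 0.074, adjusted p = 0.219), neither called. Trib1, a pseudokinase gene, and Il17re, an interleukin receptor gene, had combined changes of -0.13 (SE 0.042) and 0.34 (SE 0.052). These genes were chosen for single changes of at least 2-fold in opposite directions and the smallest combined changes.

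Among genes that both single treatments moved in the same direction, the rises led by the combined change were Ccl7, Kcnj2, Akr1b3, Rnf183, Ccl2 and Psca, and the falls were Tspan8, Mt2, Mt1, Adh7, Efhd1 and Foxj1. Kcnj2 had 6.33, 6.48 and 6.6 FPKM with NaCl and 5.52, 4.91 and 4.35 with mifepristone, and its combined change exceeded the sum by 1.17 (SE 0.093, adjusted p = 6.81e-06). Ccl2 had 58.3, 49.9 and 59.4 FPKM with NaCl and 39.5, 39 and 43 with mifepristone, and its combined change differed from the sum by 0.19 (SE 0.11, adjusted p = 0.202), which was not called. Psca, a surface antigen gene of epithelia, had 3.02, 2.59 and 3.2 FPKM with NaCl, 3.3, 3.49 and 4.03 with mifepristone and 28.2, 32.8 and 29.9 with both. Efhd1 went the other way, with a combined fall smaller than the sum by 1.53 (SE 0.096, adjusted p = 1.12e-06), from a combined level of only 0.462, 0.493 and 0.404 FPKM, where the added 0.5 narrows differences.

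**Figure D4:**
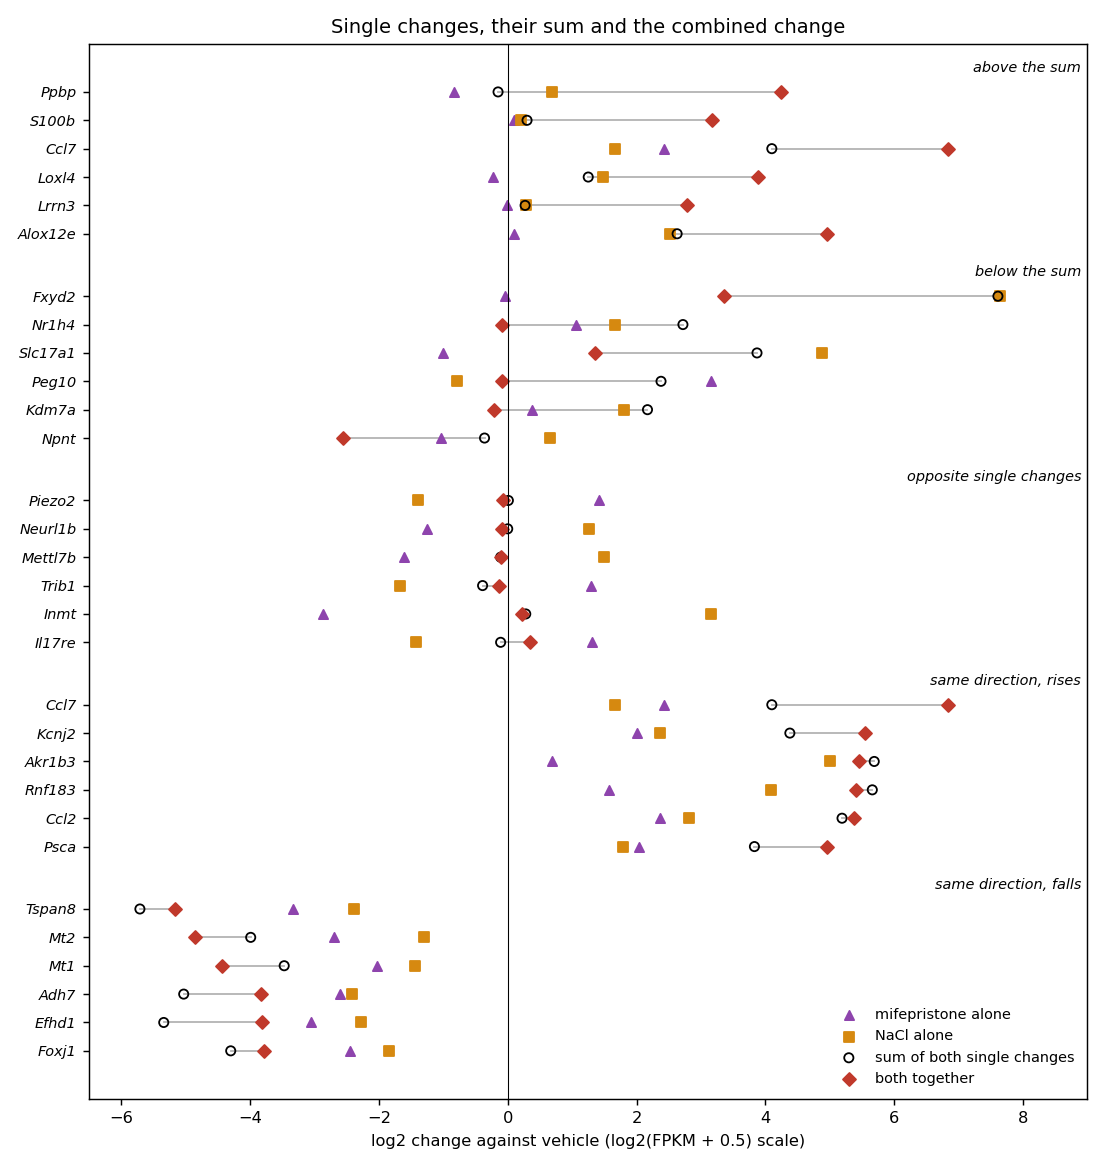
Changes from vehicle (log2) of named genes with NaCl alone, with mifepristone alone and with both, beside the sum of the single changes. The 3 comparisons share the vehicle libraries. For Ppbp, Loxl4 and S100b the combined change lies far above the sum, for Fxyd2, Nr1h4 and Slc17a1 far below it.

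Sohlh1 and Prss35, both among the 12 largest rises, rose strongly with only 1 of the single treatments. Sohlh1, a transcription factor gene of germ cells, had 1 read in the vehicle libraries together, 4 with NaCl, 8720 with mifepristone and 8040 with both, a ratio of both to vehicle of 7916 (95% interval 1420 to 312705). Its departure from the sum was -0.11 (SE 0.14, adjusted p = 0.598). Prss35 was the counterpart under NaCl, with 104 reads with mifepristone and 54682 with NaCl. Hsd11b2, the enzyme that shields the mineralocorticoid receptor from cortisol in the collecting duct, was outside the 12 largest rises. Its level rose from 1.6, 1.56 and 1.52 to 10.3, 8.74 and 9.56 FPKM (2.28, SE 0.067, adjusted p = 1.19e-10), although NaCl alone had lowered it to 0.413, 0.41 and 0.367 FPKM.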

How the data were processed

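Poly(A) RNA was sequenced from 12 libraries, 3 in each of 4 groups, per the labels. Columns named Control match the vehicle titles by name, and columns named for the mutant were tied to mifepristone titles by NaCl, letter and knowledge of the study. The number of value columns without a sample was 0. The authors' processing used Trimmomatic 0.32, STAR 2.4.2a, SAMtools 1.0, DESeq2 1.12.3 and the build GRCm38 (mm10). Their roles are not stated in the submitters' processing notes, which list them. The counting program, annotation and strand setting are not given. The authors deposited FPKM for 48034 genes. A second deposited table holds, per the file headers, a mean signal per gene (normalized counts) and the authors' log2 fold changes with adjusted p-values, and a mark of a nearby ChIP peak. From it only the mean signal and the mark were used.

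log2(FPKM + 0.5) was fitted with limma 3.58.1 (R 4.3.3, trended and robust) as 4 group means over 12 libraries for genes with at least 1 FPKM in at least 3 libraries, and p-values were adjusted by Benjamini-Hochberg over all genes tested. The fit gave the combined change (both treatments minus vehicle), each single change, and the departure of the combined change from the sum of the single changes. Reads were recovered from FPKM, the mean signal and the step that 1 read makes in a library. 100.0% of the values came out whole within 0.05, over 32627 genes, and totals of 41940955 to 49270776 reads in the 6 libraries compared set the precision. Ratios of reads carry exact binomial intervals, which cover counting error only.

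The genes and lists were chosen with earlier results of these data known. Named were 15 fixed genes, the 12 largest rises and 12 largest falls with at least 1 FPKM and groups that do not overlap, up to 4 rises and falls per list, the 6 largest departures in each direction, 6 genes with opposite and 12 with like single changes, and the 8 largest gains and losses of FPKM. Genes without a proper symbol and pseudogenes were left out, and some genes that the rule takes are not reported here. Coordinates and exon lengths come from GENCODE M21 and promoters from RefSeq's GRCm38.p6 table.

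On data simulated for the combined comparison over 13603 genes, the fit recovered 100% of the genes changed 1.5-fold (67 of 67), 2-fold (67 of 67) and 4-fold (66 of 66), with 9 calls among 13403 unchanged genes. Far fewer genes changed in the simulation than in these data. The changed genes were drawn only from those well above the filter, so recovery near the filter was not measured. Spread beyond counting error was set alike for every gene, and no library deviated along transcript length. The fit was repeated with voom on the recovered reads, on the 6 libraries only, with quality weights, with the replicate letter as a block, under other scalings, filters, pseudocounts and thresholds, and without single libraries. Tables, intervals and figures used Python 3.11.15, pandas 2.3.3, numpy 2.4.6, scipy 1.17.1 and matplotlib 3.10.9.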

Additional observations from a re-analysis of the deposited data

Results flagged for a closer look

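limma's test of the difference itself called 4374 genes whose NaCl effect in mifepristone cells differed from that in vehicle cells, and the 6 most positive and 6 most negative are given among genes with a proper symbol and a mean of at least 1 FPKM over the 6 libraries of vehicle and both treatments (log2, mifepristone cells minus vehicle cells, 3 libraries per group). It was larger in mifepristone cells for Ppbp (4.40), S100b (2.87), Ccl7 (2.74), Loxl4 (2.63), Lrrn3 (2.52) and Alox12e (2.32). The corresponding value was negative for Fxyd2 (-4.25), Nr1h4 (-2.80), Slc17a1 (-2.51), Peg10 (-2.48), Kdm7a (-2.39) and Npnt (-2.19). Adjusted p-values of these differences ran from 2.27e-10 to 1.62e-05. These genes were taken for the size of this difference, so their values describe the ends of the distribution over the 14044 genes tested.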

How the results depend on the processing

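The number of genes called for the combined change, 9936 as reported, stayed between 9333 and 10589 when each library was left out in turn. Without a filter on low values 7913 genes were higher and 6016 lower, which turns the excess of lower genes around, and the cause was not tested. With a filter of at least 5 FPKM, which tests fewer genes, 594 were at least 2-fold higher. Requiring a 2-fold change left 1644 calls. Departure from the sum, called for 4374 genes as reported, moved more, with 7156 calls under library quality weights, 2618 at an adjusted p under 0.01, and 3512 to 6784 when each library was left out in turn. The lowest value came without NaCl library B and the highest without mifepristone C, and the cause was not tested. Median-ratio scaling gave 4960 higher and 4922 lower genes, and quantile normalization 4651 and 5443. With the replicate letter as a block 9613 genes were called for the combined change, 4245 higher and 5368 lower, and 3724 for the departure. Deviations of same-lettered libraries of the 2 groups correlated at 0.25, -0.04 and 0.29 for A, B and C, and libraries of 2 of the 3 letters correlated best with their own. These values do not settle whether the letters pair the samples. The labels name no batch, and the main fit did not use the letters. Over 231 named genes and list members, 5436 of 5512 values kept their direction and side of the threshold, 70 lost the call, 6 gained it and 0 reversed.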

Other observations

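Some large changes fell outside the gene lists, and the genes here were chosen after their values were seen. Hif1a, the transcription factor of the hypoxic response, read 34.4, 35.1 and 32.6 FPKM in vehicle and 368.5, 348.1 and 347.8 FPKM with both treatments, a 10.3-fold rise (3.36, SE 0.0455), with changes of 2.34 under NaCl and 0.50 under mifepristone alone. Slco4a1, an organic anion transporter gene, rose from 11.6, 11.6 and 12.3 to 238.0, 216.1 and 235.6 FPKM (4.22, SE 0.0487). Dusp6, the phosphatase that shuts off ERK, rose from 15.9, 14.5 and 15.6 to 128.9, 124.0 and 123.3 FPKM (2.99, SE 0.0433), although mifepristone alone had lowered it (-0.69). Egr1, an immediate early gene downstream of ERK, fell from 25.1, 25.5 and 23 to 5.05, 6.13 and 4.94 FPKM (-2.10, SE 0.0974). Nupr1, a stress-induced chromatin protein gene, rose from 38.7, 34.7 and 33.1 to 262.3, 262.4 and 232.0 FPKM (2.81, SE 0.0819). Mrps6, a mitochondrial ribosomal protein gene that overlaps the myo-inositol transporter gene Slc5a3 on the same strand, rose from 46.3, 42.5 and 39.8 to 307.2, 295.3 and 281.4 FPKM (2.77, SE 0.0864), while the exonic bases that the annotation gives to both were 1.46% of those of Slc5a3.

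Falls outside the lists included Prom1, a protein of membrane protrusions, from 71.4, 70 and 70.8 to 6.66, 6.33 and 6.46 FPKM (-3.35, SE 0.0302). Aldh1a2, which makes retinoic acid, fell from 25.4, 25.1 and 23.7 to 2.51, 2.47 and 2.44 FPKM (-3.08, SE 0.0404), and Dhrs3, a retinaldehyde reductase gene, from 58.1, 57.2 and 56.1 to 9.61, 9.04 and 8.23 FPKM (-2.61, SE 0.0564). Smo, the hedgehog signal transducer of the cilium, fell from 20.1, 21.1 and 22.2 to 5.22, 5.2 and 5.19 FPKM (-1.92, SE 0.0369), with changes of -0.92 under NaCl and -0.41 under mifepristone. limma called all 10, as it did 70.7% of all tested genes.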
